A study of Mus musculus with 6 samples.

Results

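The sarcomere is the contractile unit of the heart muscle cell, and 33 genes that encode its filaments, its M-band and its Z-disc were followed across the 6 hearts of this series. The genes were taken from a list of symbols, with fetal and adult isoforms and without the atrial light chains, and every one of the 33 was found among the 19938 genes that the array's annotation names by a single symbol. They were read by 35 probe sets, of which Nebl and Tmod1 had 2 each. Of these genes 10 belong to the thick filament and M-band, 12 to the thin filament and 11 to the Z-disc.

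Each heart was hybridised to 1 Affymetrix Mouse Gene 1.0 ST array, and each animal was 6 months old (postnatal day 180). The Id conditional knockout (Id cKO) heart was Tie2Cre+Id1F/-Id3-/-, and 2 further Id cKO hearts formed a pair, incubated with recombinant mouse IGFbp3 (treated) or without it (untreated). Id control 1 was Id1F/+Id3-/- and Id control 2 was Tie2Cre+Id1-/-Id3+/-. WT was 1 heart. Id1 and Id3 hold E proteins, a family of helix-loop-helix transcription factors, away from DNA, and the series asked what their loss in vessels does to the adult heart. Tie2Cre is driven by the promoter of an endothelial receptor and recombines floxed alleles in endothelial and blood cells, not in heart muscle cells, whereas null alleles are present in every cell. Both Id controls carry Id3 null alleles, and Id control 2 also lacks Id1, while Id control 1 has no Id1 null allele. The series' design text speaks of samples at least in duplicate, but 1 array per group is given here, apart from the Id controls. Nothing states whether arrays came from separate animals, so a heart here means the sample on 1 array. A p-value here reflects the scatter among these arrays alone, technical scatter included. In the fits below that scatter also holds differences of genotype or treatment, because it is taken between arrays that differ in them.

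In a sarcomere, myosin heads on the thick filament pull on actin in the thin filament. Troponin and tropomyosin on the actin filament open the myosin sites when calcium binds, titin spans from the Z-disc to the M-band, and the Z-disc anchors the thin filaments of neighbouring sarcomeres. Several of these proteins come in pairs of isoforms that the heart uses at different ages. In the mouse the ventricle changes from the slow myosin heavy chain Myh7 to the fast Myh6 around birth, and from the slow skeletal troponin I gene Tnni1 to the cardiac Tnni3. A return of Myh7 is a textbook sign of a loaded or failing rodent heart.

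The 3 myosin heavy chain genes also carry microRNAs in their introns, which are made from the same primary transcripts. In the RefSeq tables of GRCm38.p6 the hairpins of miR-208a, miR-208b and miR-499 lie within the spans of Myh6, Myh7 and Myh7b. They are shown because the host genes include the member that differed most between these hearts. Capitals mark the seed, bases 2 to 8. The first pair share their seed and 19 of 22 bases, and the last has 6 of the 7 seed bases in common with them.
mmu-miR-208a-3p, in Myh6, chr14:54949072-54949093, minus strand: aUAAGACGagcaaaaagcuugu
mmu-miR-208b-3p, in Myh7, chr14:54975710-54975731, minus strand: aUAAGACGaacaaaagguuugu
mmu-miR-499-5p, in Myh7b, chr2:155622893-155622913, plus strand: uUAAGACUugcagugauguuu

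The arrays fell into sets by the scale of the deposited log2 levels. Their medians were 5.77 in Id cKO, 5.74 and 5.73 in the Id controls and 5.83 in WT, but 4.45 and 4.51 on the treated and untreated arrays. Levels are therefore given as deposited within a set, and after quantile normalization over the 6 arrays wherever the sets meet. After that normalization Id1 was at 6.07 in Id cKO and 6.50 and 6.51 in the treated and untreated hearts. It was at 7.68 in Id control 1, 6.00 in Id control 2, which lacks it, and 7.79 in WT. Id3, on the same scale, was at 4.24 in Id cKO and 5.03 and 4.74 in the treated and untreated hearts. It was at 4.58 in Id control 1, which lacks it, 6.90 in Id control 2 and 6.81 in WT. Each is low where the genotype lacks it. Xist and the Y-linked Eif2s3y gave the WT, treated and untreated hearts a male pattern and the others a female one. Heart muscle genes outside the sarcomere were at high level on every array, with a summed level (log2 of the sum of unlogged levels) of 16.16 for 12 genes in Id cKO, 16.31 in both Id controls and 16.26 in WT. The skeletal myosin genes Myh1, Myh2 and Myh4 lay between 4.74 and 5.44 on these 4 arrays, under the limit of 6 used here for a compared gene. Of 13 skeletal muscle genes, 5 averaged at least 6 over these arrays (Ckm, Mybpc2, Tnnt3, Tnni2 and Atp2a1). The summed level of the 13 was 12.41 in Id cKO, 12.88 and 12.85 in the Id controls and 12.76 in WT. Ckm, also among the 12 heart muscle genes, was at 12.17, 12.72, 12.67 and 12.60 on the same arrays, and Mybpc2 at 7.87, 7.43, 7.83 and 6.75. Id control 2 stood apart in several atrial muscle genes. Myl7, the atrial regulatory light chain, was at 5.38 in Id cKO, 5.31 in Id control 1, 12.27 in Id control 2 and 5.28 in WT. Myl4, the atrial essential light chain, was at 6.82, 6.83, 12.97 and 6.69 on the same arrays, and Sln at 4.70, 4.74, 7.13 and 5.18. Of 9 atrial genes, 7 averaged at least 6 over these arrays. The summed level of all 9 was 14.08 in Id cKO, 11.90 in Id control 1, 14.86 in Id control 2 and 11.31 in WT. Nppa, on this list, was at 14.03 in Id cKO, close to the sum itself, 11.30 and 13.71 in the Id controls and 10.30 in WT. Bmp10 was not raised in Id control 2, at 4.34 in Id cKO, 4.30 and 3.98 in the Id controls and 4.22 in WT. Kcnj3 was at 7.04, 8.99, 9.28 and 8.58 on the same arrays and Stard10 at 7.53, 8.77, 10.86 and 9.09, both lowest in Id cKO. The number of arrays limits the precision of everything that follows.

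Most sarcomere genes had nearly the same level in Id cKO as in the Id controls and WT, and the slow myosin Myh7 was the member furthest from WT. Over the 4 arrays of this set, the range from the lowest to the highest array had a median of 0.30 (log2) for the 31 members with a mean of at least 6, against 0.35 for 10975 genes of that level. Ranges of at least 1.5-fold occurred in 6 of 31 members, or 19.4%, and in 19.4% of the genes. Myh7, Tpm2, Pdlim3, Myot, Flnc and Synpo2l were these members. In bulk hearts, fewer cells of a type and less RNA per cell cannot be told apart.

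**Figure D1:**
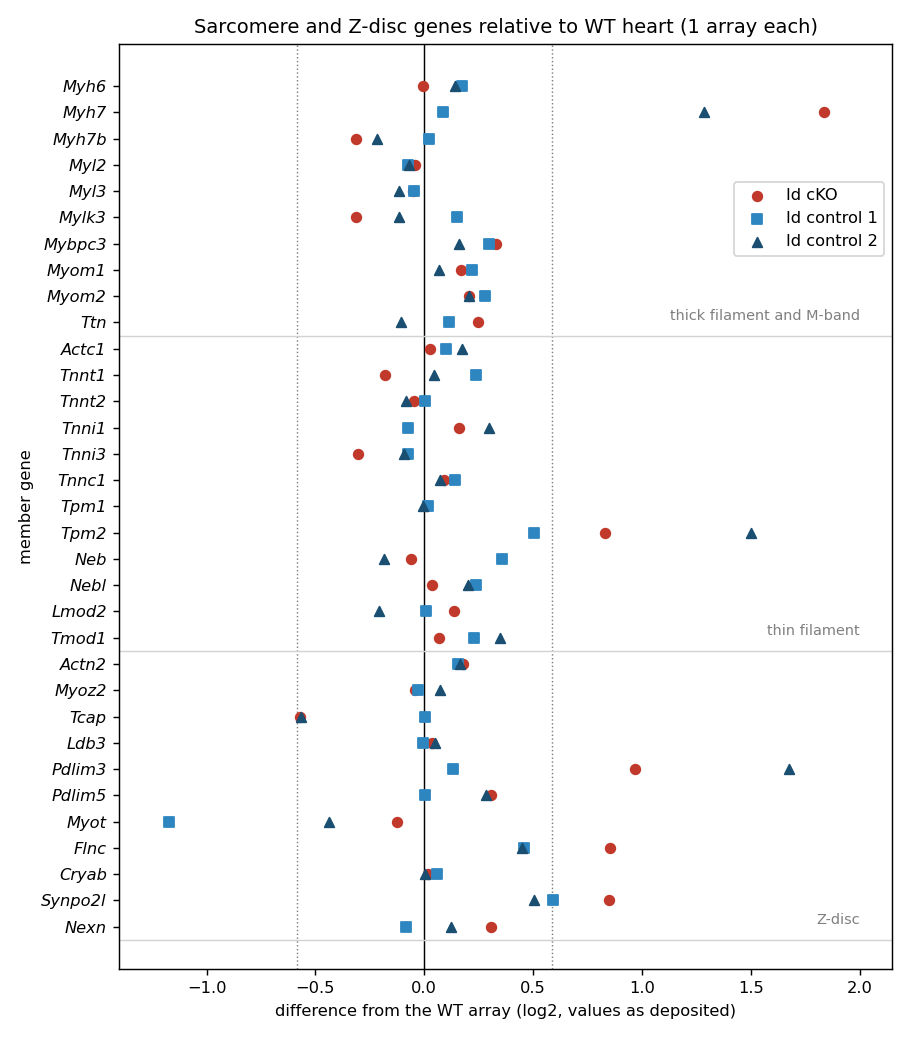
Difference of each member from the WT array, in log2 units of the deposited values, for Id cKO (circles), Id control 1 (squares) and Id control 2 (triangles), 1 array each, grouped by place in the sarcomere; dotted lines mark 1.5-fold. Most members lie within 0.35 of WT, while Myh7 in Id cKO is at 1.84 and Pdlim3 and Tpm2 are highest in Id control 2.

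Among the myosin heavy chains, Myh7 was at 11.30 in Id cKO, 9.55 in Id control 1, 10.75 in Id control 2 and 9.46 in WT (log2, as deposited). The Id cKO array was the highest, Id control 2 lay between, and Id control 1 was close to WT. Myh7 in Id cKO was thus 3.57-fold above WT, 3.35-fold above Id control 1 and 1.47-fold above Id control 2. Myh6, the fast adult chain, was at 13.53 in Id cKO, 13.71 in Id control 1, 13.67 in Id control 2 and 13.53 in WT. The 4 arrays covered only 0.18 for Myh6, with Id cKO and WT at the low end. Myh7b, an ancient slow myosin gene of muscle, was at 7.27 in Id cKO, against 7.61 and 7.37 in the Id controls and 7.58 in WT. The difference of Myh7 minus that of Myh6 was 1.84 for Id cKO against WT, 1.93 against Id control 1 and 0.70 against Id control 2. Between the Id controls, 2 minus 1, it was 1.23. Several atrial markers were high in Id control 2, and of these Myl7 and Myl4 were not high in Id cKO. The part of atrial tissue in the Myh7 level of Id control 2 was not tested.

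**Figure D2:**
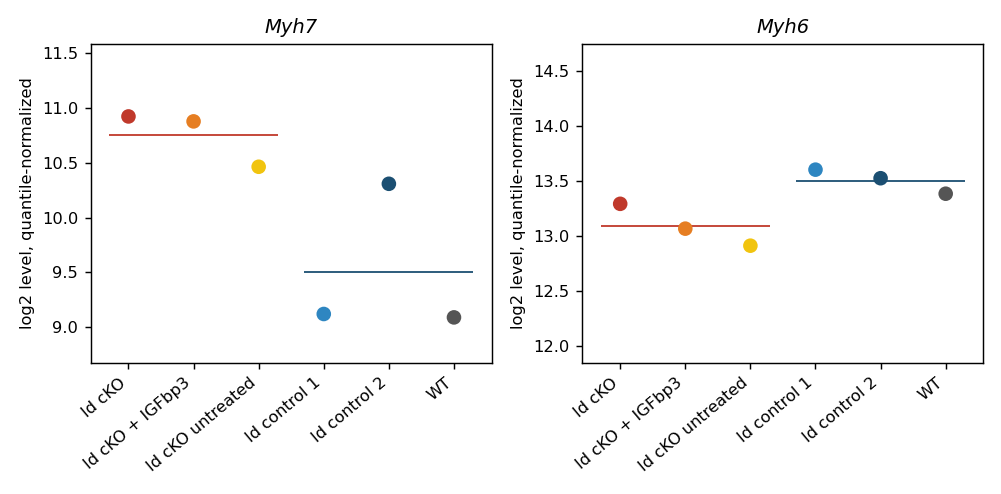
Levels of Myh7 (left) and Myh6 (right) on each of the 6 arrays, in log2 after quantile normalization, with 1 point per heart and lines at the mean of the 3 Id cKO hearts and of the other hearts. The 3 Id cKO hearts are the highest for Myh7, with Id control 2 just under them, and the lowest for Myh6.

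After quantile normalization the incubated hearts could be set beside the others. Myh7 was then at 10.92 in Id cKO, 10.87 in the treated and 10.46 in the untreated heart, against 9.12 in Id control 1, 10.31 in Id control 2 and 9.09 in WT. Every heart of the Id cKO genotype was above every other heart, and the untreated heart and Id control 2 were closest. Myh6 was at 13.29, 13.07 and 12.91 in these Id cKO hearts, against 13.60 and 13.53 in the Id controls and 13.38 in WT, again without overlap and in the opposite direction. The means were 10.75 ± 0.25 and 9.51 ± 0.69 for Myh7, and 13.09 ± 0.19 and 13.50 ± 0.11 for Myh6 (SD, n = 3 arrays of the Id cKO genotype and n = 3 without it). The difference of Myh7 minus that of Myh6 was 1.66, with an exact two-sided permutation p of 0.10, the smallest that 3 against 3 arrays allow. That permutation takes no account of the array set, to which 2 of the 3 Id cKO arrays belong alone. With the set as a term in limma, Myh6 was -0.21 ± 0.19 (limma SE), adjusted p = 0.906, and as deposited Id cKO was within 0.01 of WT.

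A limma fit over 10099 genes compared the 3 hearts of the Id cKO genotype with the 3 without it, with the array set as a term. The estimate then rests on the Id cKO array against the other 3 of its set. Its spread comes from those 3 arrays and from the incubated pair, because the single Id cKO array of that set leaves no residual. At an adjusted p of 0.05 (Benjamini-Hochberg), 0.584% of genes passed and 0 of 31 compared members did, against 2 members at an unadjusted p under 0.05, which were Myh7 and Flnc, where 10.0% of all genes were. Myh7 was 1.41 ± 0.44 (limma SE) higher, adjusted p = 0.261. Id control 2, the highest for Myh7 of the 3 hearts without the genotype, decides this call. Leaving it out lowers their mean and narrows their spread by construction, so a pass without it is no separate support for a difference. The estimate then rests on the Id cKO array against Id control 1 and WT. In that fit Myh7 was 1.81 ± 0.25 higher and passed in limma, adjusted p = 0.00626, where 1.25% of genes passed. Over the 12 settings tried the adjusted p of Myh7 lay between 0.00626 and 0.554, and its difference between 1.21 and 1.81. Non-overlapping levels were found for 1 member above and 4 below, or 3.23% and 12.9% of 31, against 14.0% and 17.8% of all genes, so the members separated no more often than genes in general. Those below were Myh6, Mylk3, Tnnt1 and Tnni3. Without Id control 2 there were 9 such members, against 18.4% of all genes above and 23.0% below. Myh7 and Pdlim3 were above, and Myh6, Myl3, Mylk3, Tnnt1, Tnnt2, Tnni3 and Tcap were below.

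Set against the Id controls as deposited, Id cKO had no member at least 1.5-fold from both arrays in the same direction. Of 11310 genes, 2.63% met that limit above and 2.37% below. After quantile normalization 1 member met it, Myh7, at 10.92 in Id cKO against 9.12 and 10.31 in the Id controls. In limma 0 of 32 compared members passed an adjusted p of 0.05, against 0.0177% of all genes, and 1 member, Flnc, had an unadjusted p under 0.05, as 13.5% of all genes had. Differences of the members ran between -0.33 and 1.15, with a median of 0.00 against -0.03 for all genes, and 16 were above and 16 below 0. Myh7 had the largest, 1.15 ± 0.52 (limma SE), adjusted p = 0.436, with a range of 0.327 to 0.535 over the alternatives that gave a test. Taken singly, Id cKO was at least 1.5-fold above Id control 1 in 3 members (Myh7, Myot and Pdlim3), or 9.38%, against 9.11% of all genes in either direction and 4.66% higher. It was as far below Id control 2 in 2 members (Pdlim3 and Tpm2), or 6.25%, against 10.0% in either direction and 5.91% lower.

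**Figure D3:**
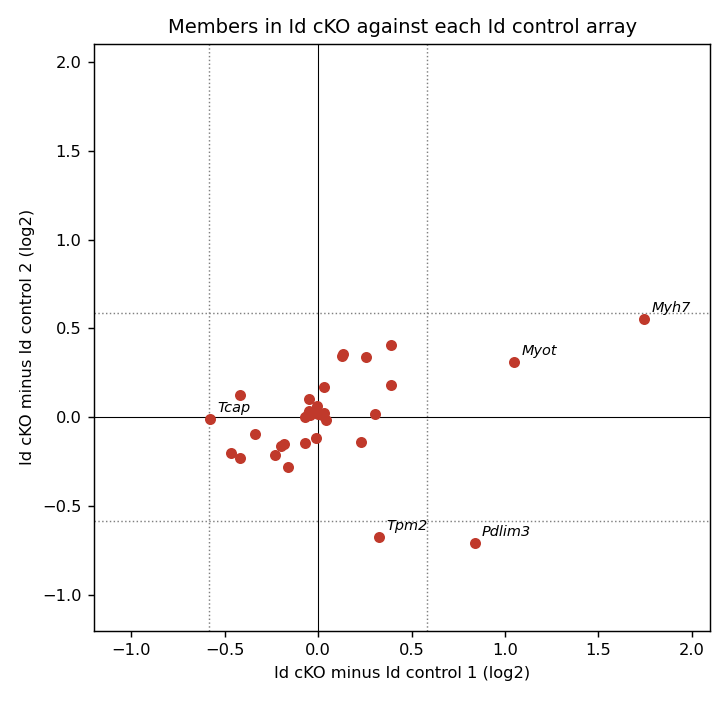
Each point is a member gene, placed by its level in Id cKO minus Id control 1 (horizontal) and minus Id control 2 (vertical), in log2; dotted lines mark 1.5-fold. As deposited, no member passes the lines of both controls in the same direction. Myh7 comes nearest, with 1.75 and 0.55, and Pdlim3 is above Id control 1 by 0.84 and below Id control 2 by 0.71.

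Against WT, with 1 array on each side and no replicate check, 5 of 31 compared members were at least 1.5-fold higher in Id cKO and 0 were lower. This is 16.1% of the members, against 10.3% of 11478 genes in either direction, 6.94% higher and 3.35% lower. Myh7 was the member past 2-fold, a limit that 3.17% of all genes passed in either direction and 2.20% of all genes passed above. The others were Tpm2, Pdlim3, Flnc and Synpo2l. The median difference was 0.04 for the members and 0.00 for all genes.

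The remaining genes of the thick filament were close to level. Myl2 and Myl3, the ventricular regulatory and essential light chains, covered 0.07 and 0.11 over the 4 arrays. Mylk3, the cardiac kinase of the regulatory light chain, was at 11.29 in Id cKO, 11.76 and 11.49 in the Id controls and 11.61 in WT, lowest in Id cKO. The fit across both sets gave -0.33 ± 0.20 (limma SE) for Mylk3, adjusted p = 0.73. Mybpc3, the cardiac myosin-binding protein that tunes crossbridge cycling, was at 13.04 in Id cKO, 13.01 and 12.87 in the Id controls and 12.71 in WT. The giant spring titin (Ttn) was at 12.39 in Id cKO, against 12.26 and 12.03 in the Id controls and 12.14 in WT. Myom1 and Myom2, which crosslink myosin at the M-band, were no further than 0.21 from WT in Id cKO.

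On the thin filament, the core cardiac genes held a narrow range. The cardiac actin gene Actc1 covered 0.17 over the 4 arrays, the troponin T gene Tnnt2 0.09, the troponin C gene Tnnc1 0.14 and the tropomyosin gene Tpm1 0.02. Tnni1, the slow skeletal troponin I of the fetal heart, was at 5.96 in Id cKO, 5.73 and 6.10 in the Id controls and 5.80 in WT. Only Id control 2 was above the limit for a compared gene. Its adult counterpart Tnni3 was at 12.67 in Id cKO, 12.90 and 12.89 in the Id controls and 12.98 in WT, lowest in Id cKO, a difference from Id control of -0.22 ± 0.14 (limma SE), adjusted p = 0.549. Tnnt1, the slow skeletal troponin T, was at 7.11 in Id cKO, 7.53 and 7.34 in the Id controls and 7.29 in WT, and differed from Id control by -0.32 ± 0.16 (limma SE), adjusted p = 0.463. Tnnt1 and Tnni3 are direct neighbours among the protein-coding genes of chromosome 7, as are Myh6 and Myh7 on chromosome 14.

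Tpm2, the tropomyosin beta gene of skeletal and smooth muscle, varied most on the thin filament. It was at 7.50 in Id cKO, 7.18 in Id control 1, 8.18 in Id control 2 and 6.68 in WT. Id control 2 was thus the highest array and WT the lowest, with Id cKO 1.78-fold above WT and 1.59-fold below Id control 2. Of 11 smooth muscle and pericyte genes, 5 were higher and 6 lower in Id cKO than in Id control. Acta2 was at 10.09 in Id cKO, 11.10 and 11.33 in the Id controls and 9.81 in WT, and Tagln was at 7.58 in Id cKO, 8.00 and 8.93 in the Id controls and 7.32 in WT, while the pericyte gene Cspg4 was at 7.93 in Id cKO, 7.19 and 7.20 in the Id controls and 6.86 in WT. The summed level of the list was 13.50 in Id cKO, 13.37 and 13.48 in the Id controls and 13.20 in WT, and its part in the Tpm2 level was not tested.

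Neb, the giant thin-filament protein of skeletal muscle, lay between 5.75 and 6.29 on the 4 arrays, around the limit for a compared gene. Nebl, its cardiac relative nebulette, was at 10.62 in Id cKO, 10.82 and 10.79 in the Id controls and 10.59 in WT. Its second probe set gave -0.53 for Id cKO minus Id control, against -0.18 by the brighter one. Lmod2, which elongates thin filaments, was at 11.44 in Id cKO, 11.31 and 11.09 in the Id controls and 11.30 in WT. Tmod1, which caps them, was at 11.28, 11.44, 11.56 and 11.21 on the same arrays. Both were within 1.5-fold on all 4 arrays.

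At the Z-disc, Flnc, Synpo2l, Pdlim3 and Myot varied by at least 1.5-fold over the 4 arrays and the other 7 members did not. The crosslinker alpha-actinin (Actn2) was at 12.70 in Id cKO, 12.68 and 12.69 in the Id controls and 12.52 in WT. Ldb3, Myoz2 and the small heat-shock chaperone Cryab covered 0.05, 0.12 and 0.06 over these arrays. Pdlim5 and Nexn, an adaptor and an actin-binding protein of the Z-disc, were each 0.30 above WT in Id cKO.

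Flnc, the muscle filamin that links the Z-disc to the membrane, was at 11.06 in Id cKO, 10.67 and 10.66 in the Id controls and 10.21 in WT. The order was Id cKO, then the Id controls, which differed by 0.01, then WT. Flnc in Id cKO was 0.40 ± 0.14 (limma SE) above Id control, adjusted p = 0.348, and 1.81-fold above WT. The Id controls were themselves 0.45 ± 0.14 (limma SE) above WT, adjusted p = 0.629. After quantile normalization Flnc was at 10.69 in Id cKO, 10.11 in the treated and 10.33 in the untreated heart, against 10.25 and 10.23 in the Id controls and 9.85 in WT, so that the hearts of the Id cKO genotype overlapped with the others.

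Synpo2l, an actin-associated Z-disc protein, had the same order. It was at 9.51 in Id cKO, 9.26 and 9.17 in the Id controls and 8.67 in WT. Id cKO was 0.30 ± 0.14 (limma SE) above Id control, adjusted p = 0.452, and 1.80-fold above WT. Both Id controls exceeded WT, by 0.59 and 0.51. WT was the sole heart with a male pattern in this set, so genotype and sex cannot be told apart in the comparisons with WT.

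Pdlim3, an adaptor that binds alpha-actinin, was at 8.38 in Id cKO, 7.54 in Id control 1, 9.09 in Id control 2 and 7.41 in WT. The 2 Id controls lay 2.92-fold apart, with Id cKO between them and 1.96-fold above WT. Without Id control 2, the highest array for Pdlim3, all 3 hearts of the Id cKO genotype were above the other 2. The fit then gave 0.91 ± 0.25 (limma SE) for Pdlim3, adjusted p = 0.138, against 0.40 ± 0.53, adjusted p = 0.993, with it. Tcap, the titin cap protein, was at 11.67 in Id cKO, 12.25 in Id control 1, 11.68 in Id control 2 and 12.25 in WT. Id cKO and Id control 2 were equally low for Tcap, 1.49-fold and 1.48-fold under WT.

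**Figure D4:**
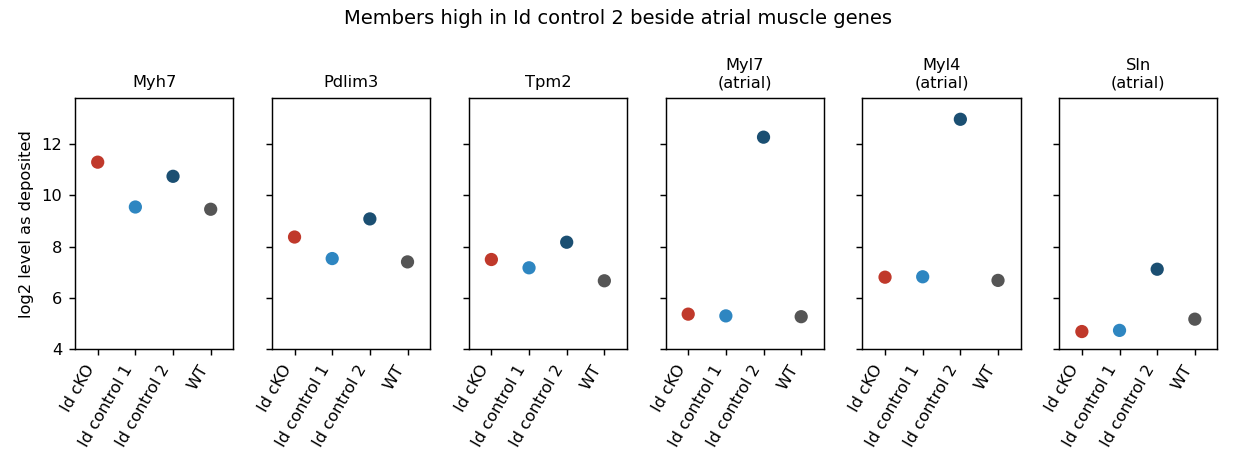
Deposited log2 levels of the members Myh7, Pdlim3 and Tpm2 and of the atrial muscle genes Myl7, Myl4 and Sln in Id cKO, Id control 1, Id control 2 and WT, 1 point per array. Myl7 and Myl4 are at 12.27 and 12.97 in Id control 2 and under 7 on the other 3 arrays, and Pdlim3 and Tpm2 are also highest there.

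Myot, the Z-disc protein myotilin, gave the widest downward difference from WT. It was at 9.57 in Id cKO, 8.52 in Id control 1, 9.26 in Id control 2 and 9.70 in WT. Id control 1, which has a date code of its own in the labels, was the low array, 2.25-fold under WT, and the other 3 lay within 0.44. No source used here says what the codes date. Between Id control and WT, 0 of 32 members passed limma, with the smallest adjusted p at 0.629, and 2 (Flnc and Synpo2l) had an unadjusted p under 0.05. Over all genes limma passed 0 as well (0% of 11407), with 7.26% at an unadjusted p under 0.05. No member was 1.5-fold from WT on both Id control arrays, against 1.37% of all genes, and the median was 0.10 against 0.05 for all genes.

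Id control 2 and Id control 1 differed by at least 1.5-fold in 4 of 33 members, or 12.1%, against 4.79% of 11244 genes. Myh7, Tpm2, Pdlim3 and Myot were these members, each higher in Id control 2, where 3.45% of all genes were. The genotypes of the 2 arrays, their date codes and the atrial genes of Id control 2 change together here and cannot be told apart. The median absolute difference between the controls was 0.10 for the 31 members with a mean of at least 6, these 4 included, against 0.14 for all genes, and Tcap differed by 1.48-fold.

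IGFbp3 carries insulin-like growth factors outside cells, and the pair asked whether it alters the Id cKO heart. Most members were close on the 2 arrays. Of 29 compared, 20 were higher and 9 lower in the treated heart, against 4058 higher and 3368 lower of 7474 genes. The median difference was 0.16 for the members and 0.05 for all genes as deposited. After quantile normalization the members' median was 0.08, and after cyclic loess 0.01, so its size depends on the scaling. At least 1.5-fold differences were found in 2 members, both higher, or 6.90%, against 14.4% of 7474 genes in either direction and 7.65% higher, and no member reached 2-fold, which 1.30% of genes did. There is no replicate and hence no test. Myot was at 8.47 in the treated heart and 7.49 in the untreated one, and Tcap at 10.40 and 9.80. Both Z-disc genes were higher with IGFbp3, by 1.96-fold and 1.52-fold, and after quantile normalization Tcap was 1.41-fold apart and so under the limit. Myot also varied between the Id controls, by 1.67-fold. Myh7 was at 10.12 in the treated and 9.62 in the untreated heart, 1.42-fold higher with treatment, and Myh6 was at 12.58 and 12.48. Next were Nexn (0.51) and Nebl (0.50) above 0, and Synpo2l (-0.46) and Ldb3 (-0.45) below it.

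**Figure D5:**
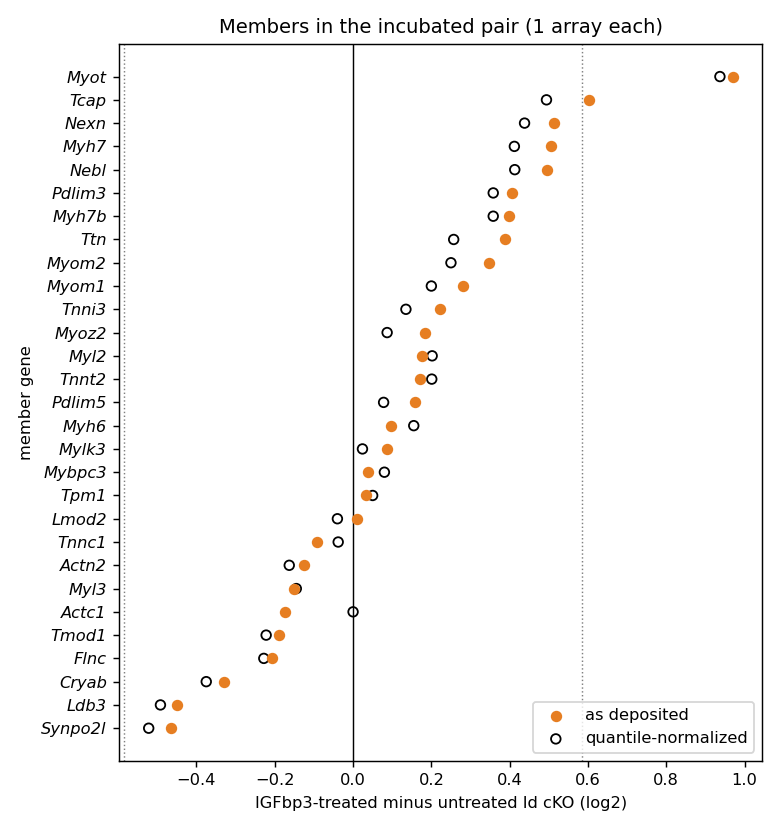
Difference of the treated minus the untreated Id cKO heart for the 29 compared members, in log2, as deposited (filled) and after quantile normalization (open); dotted lines mark 1.5-fold. Myot at 0.97 lies furthest from 0, Tcap passes 1.5-fold as deposited, and the lowest member is Synpo2l at -0.46.

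The incubated hearts also differed from the Id cKO heart of the other set. After quantile normalization, 28 of 31 members were lower in the treated heart than in Id cKO and 26 of 31 were lower in the untreated heart. Their medians were -0.27 and -0.34, against -0.04 and -0.01 for all genes. The share of all genes below 0 is not given here. Differences of at least 1.5-fold were found in 7 members (22.6%, against 20.7% of all genes) for the treated heart and 9 (29.0%, against 27.8%) for the untreated one. Tnni3 was at 11.46 in the treated and 11.33 in the untreated heart, against 12.41 in Id cKO, and Myl2 was at 12.76 and 12.56 against 13.45. Nebl was at 9.60 and 9.19, against 10.22. The summed level of 12 heart muscle genes outside the sarcomere was 15.66 in the treated and 15.64 in the untreated heart, against 15.92 in Id cKO. That of 8 fibroblast genes was 13.95 and 13.86, against 13.06, and the part of either in the members' levels was not tested. Genotype is shared here, but incubation, array set and sex pattern change together and cannot be told apart. With the array set as a term, Tnni3 and Tnnt1 were lower by genotype by -0.25 ± 0.19 and -0.30 ± 0.19 (limma SE), adjusted p = 0.84 and 0.738.

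Other sarcomere, Z-disc and muscle chaperone genes, 69 of 70 listed, included several that differed more than the members. Of 57 compared between Id cKO and Id control, 0 passed limma and 9 had an unadjusted p under 0.05, as 13.5% of all genes had, and 3 were at least 1.5-fold higher than both controls, or 5.26%, against the 2.63% of all genes given above. The 1 gene counted as lower, Myl1, was at 4.80 in Id cKO, under the limit of 6, and entered only through the Id controls. Ankrd1, a titin-binding repeat protein of the I-band that responds to strain, was at 13.39 in Id cKO, 12.11 and 12.23 in the Id controls and 11.56 in WT. Ankrd23, of the same family, was at 12.01 in Id cKO, against 10.87 and 11.11 in the Id controls and 10.92 in WT. Xirp2, an actin-binding Xin-repeat protein, was at 11.61 in Id cKO, 10.78 and 10.55 in the Id controls and 10.70 in WT. In each of these 3 genes the Id cKO array stood above the other 3.

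In the fit across both sets, 1 of 53 such genes, Ankrd1, passed limma above, where 0.584% of all genes passed in either direction. Ankrd1 was at 13.17 in Id cKO, 12.83 in the treated and 12.73 in the untreated heart, against 11.77 and 11.86 in the Id controls and 11.22 in WT (quantile-normalized), a difference of 1.56 ± 0.26 (limma SE), adjusted p = 0.0486. Myl1, a fast skeletal and fetal light chain that is also on the atrial list, was at 4.35, 3.82 and 3.42 in the Id cKO hearts, against 6.31 and 7.06 in the Id controls and 6.04 in WT (quantile-normalized). It was under the limit of 6 in every Id cKO heart and entered the fit only through the others. A pass of Myl1 below is therefore not counted, and no size or test is given for it. Acta1, the skeletal actin that the fetal heart uses beside Actc1, had a similar order within the first set. It was at 13.15 in Id cKO, 11.03 in Id control 1, 13.05 in Id control 2 and 10.86 in WT, and so was as high in Id control 2 as in Id cKO, within 0.11. After quantile normalization Acta1 was at 11.85 in the treated and 12.22 in the untreated heart, under the 12.82 of Id control 2, so that the genotypes overlapped. Against WT, 6 of 54 such genes were at least 2-fold higher in Id cKO (Acta1, Ankrd1, Fhl1, Pdlim1, Mybpc2 and Ankrd23), where 2.20% of all genes were, and 2 lower (Tmod4 and Myl1, the last under the limit in Id cKO), where 0.967% of all genes were. Of 43 compared in the incubated pair, Mef2d, a muscle transcription factor, was 2-fold lower with IGFbp3 (7.82 in the treated and 8.85 in the untreated heart), as 0.803% of all genes were, while its second probe set was at 5.36 and 5.25.

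The promoters of Myh6 and Myh7 are shown because the hearts of the Id cKO genotype lay above the others for Myh7 and below them for its neighbour Myh6, the last by -0.21 ± 0.19 (limma SE), adjusted p = 0.906, with the array set as a term. They are the 250 bases before the annotated start (RefSeq, GRCm38.p6), and Myh7 has 2 listed starts, of which the first is used. Capitals mark E-boxes (CANNTG), the letters that E proteins and other helix-loop-helix factors bind, and M-CAT letters (CATTCC, here on the opposite strand as GGAATG), which TEAD factors bind. Both strands were searched, and these 2 motifs do not overlap in either window.
Myh6, chr14:54966608-54966857, minus strand: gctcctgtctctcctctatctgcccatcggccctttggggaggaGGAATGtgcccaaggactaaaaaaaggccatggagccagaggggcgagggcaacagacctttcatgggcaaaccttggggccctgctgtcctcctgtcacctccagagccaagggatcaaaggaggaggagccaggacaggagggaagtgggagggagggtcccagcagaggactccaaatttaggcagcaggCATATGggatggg
Myh7, chr14:54994627-54994876, minus strand: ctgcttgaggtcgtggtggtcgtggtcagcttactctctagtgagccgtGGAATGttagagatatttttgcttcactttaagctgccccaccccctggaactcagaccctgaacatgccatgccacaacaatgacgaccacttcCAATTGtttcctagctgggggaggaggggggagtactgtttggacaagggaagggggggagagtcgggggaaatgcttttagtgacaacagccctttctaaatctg

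Both promoters thus hold 1 M-CAT match, 206 and 201 bases before the start, and 1 E-box. Promoters were listed for 27 of the 33 members. An E-box was found in 23 of these windows (85.2%), against 66.1% of 27018 genes, and the M-CAT letters in 9 (33.3%), against 12.6%. The M-CAT windows belong to Tnnt2, Nebl, Tmod1, Pdlim3, Tpm1, Myl3, Tnnc1, Myh6 and Myh7. Of these, Tpm1, Tnnt2 and Myl3 were among the flattest members, and Myh7 and Pdlim3 among those that varied most. The CArG box, bound by serum response factor, was found in 4 (Actc1, Myl3, Ldb3 and Myom1), or 14.8% against 1.40%, and a MEF2 site in 4 (Ttn, Mybpc3, Myoz2 and Synpo2l), or 14.8% against 3.01%. A TATA box (TATAAA), whose letters can lie within a MEF2 site, was found in 1, Tnnt1, or 3.70% against 13.0%. These matches describe the letters in the windows and were not tested.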

How the data were processed

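Total RNA of 6 hearts (300 ng each, per the labels' protocols) was hybridised to 6 arrays. The deposited values are log2 levels for 35557 probe sets, made by the authors with Affymetrix Expression Console and RMA, per the submitters' processing notes; no version is given. Groups came from the source labels. Probe sets annotated to 1 symbol (21789; 1621 had several and 12147 none) were used, and the brightest over the 6 arrays stood for a gene. A gene entered a comparison if its mean reached 6 in the higher group. limma (3.58.1, R 4.3.3) was fitted to all compared genes and p-values were adjusted by Benjamini-Hochberg, with 0.05 as the limit. The fit in 5 groups has 1 residual degree of freedom, from the Id control pair, whose spread is taken to hold for single arrays too. The arrays of that pair differ in genotype, date code and atrial genes, so their spread is not that of replicates. The fit by genotype used quantile-normalized values and a term for the array set. The fitting steps were tested on simulated data. Size limits were 1.5-fold and 2-fold, met against every array of the other group. Members and lists were chosen with earlier results of these data known. Every member could be named, with values on each array for those at least 1.5-fold apart or not overlapping and for isoform pairs; from the list of other sarcomere genes, those 2-fold apart were named. Ankrd23 and Xirp2 were named for passing the 1.5-fold count, after their values were seen, and so were the members described by range. Other scalings, floors, probe set rules and array omissions were tried. Protein sequences of the isoform pairs were not analysed here.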

Additional observations from a re-analysis of the deposited data

How the results depend on the processing

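Each limma count of members kept its value under every alternative that was fitted, with the exception of the fit by genotype, where leaving out 1 array at a time gave 0 to 1, the 1 being Myh7 without Id control replicate 2. That fit could not be made without the Id cKO array, which alone links genotype and array set. The count of members not overlapping by genotype was 5 and lay between 5 and 9 when arrays were left out, when fewer arrays need to be apart. Of all genes, 14.0% were above and 17.8% below without overlap on all arrays, and 18.4% and 23.0% without Id control replicate 2. The share of all genes is not given here for the other omissions. Members at the 1.5-fold limit from both Id controls were 0, but 1 after quantile normalization (Myh7) and 1 after cyclic loess. They were 2 to 3 with 1 control left out, when the limit needs to be met on fewer arrays. For Id control against WT the count was 0, but 2 with arrays centred on their medians, which shifted the median of all genes to 0.17, and 2 to 3 with 1 control left out. At 2-fold the count against WT was 1 in place of 5. In the treated pair it was 1 after quantile normalization and 0 at 2-fold, in place of 2, and the members' median there was 0.16 as deposited, 0.08 after quantile normalization and 0.01 after cyclic loess. The Myh7 difference minus the Myh6 difference by genotype was 1.66. It was 1.20 with values as deposited and with arrays centred on their medians, and between 1.42 and 2.05 when arrays were left out. Small differences of single genes turned sign: Tnni3 in Id control minus WT was 0.01 after median centring, and Tpm2 by genotype was -0.057 without the array set term and from -0.157 (without the WT array) to 0.573 (without Id control replicate 2) when arrays were left out. The causes were not tested. No paired analysis was possible because every group other than Id control has 1 array.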

Other observations

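The array also carries probe sets for precursors of the microRNAs in the myosin genes. Mir208a, in Myh6, was at 6.46 in the treated and 5.20 in the untreated heart as deposited, and between 4.82 and 4.99 on the other 4 arrays. After quantile normalization it was at 7.24 in the treated and 6.01 in the untreated heart, and at 4.39 in Id cKO. Its host Myh6 was 0.10 apart on the treated and untreated arrays. Mir499, in Myh7b, was at 3.94 or below on all 6 arrays as deposited, under the limit of 6. Mir208b was not analysed here. These genes were chosen after their values were seen. The serum response factor gene Srf, which acts on many sarcomere genes, was at 7.60 in the treated and 8.46 in the untreated heart, and after quantile normalization at 8.37 and 9.31, against 9.32 in Id cKO.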
